A study of Mus musculus with 115 samples.

Results

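The clustered replication-dependent histone genes were examined in prostate tumor RNA of (TRAMP x WSB/EiJ) F2 mice. Members were the protein-coding genes that GENCODE M21, a mouse gene annotation on GRCm38, names with Hist1h, Hist2h, Hist3h or Hist4h at the start. The annotation holds 67 such genes, of which 65 of the 45699 genes in the table were found by identifier, and Hist1h2bm and Hist1h2bh were not analysed here. The 65 genes comprised 6 for the linker histone H1, 18 for H2A, 16 for H2B, 12 for H3 and 13 for H4. The libraries formed 1 group, labelled as F2 offspring of the cross, whose tissue was labelled prostate tumor, and no treatment was labelled. The study describes its F2 mice as transgene-positive males, but its text states fewer libraries than the table holds. The TRAMP transgene drives a viral T antigen from a probasin promoter active in prostate epithelium. Mice were kept to a set age or to a humane endpoint, and RNA of small prostates was taken from the ventral prostate, which limits how alike the tissue of any pair of libraries was. Values are TPM, an RNA level scaled to the same total in every library, which is a level per transcript length and keeps no depth, so the number of reads behind a value is unknown.

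Core histones H2A, H2B, H3 and H4 form the octamer around which DNA is wound, and H1 binds the linker DNA between octamers. The clustered genes supply new histones while DNA is copied in S phase, and they are known for being transcribed together at histone locus bodies, where the scaffold protein Npat is found. Their mRNAs mostly lack introns and a poly(A) tail and end after a conserved stem-loop that is bound by Slbp (stem-loop binding protein). Total RNA depleted of ribosomal RNA, as used here, holds mRNAs without a poly(A) tail. Mki67, a nuclear protein made in cycling cells, served as the reference for proliferation.

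The genes lay in 4 clusters. The Hist1 cluster held 52 members on chromosome 13 (chr13:21715763-23934851, GRCm38), in a first stretch of 22 genes and a second of 30 genes separated by 1487373 bases without a member. The Hist2 cluster held 10 members (chr3:96219865-96270132), the Hist3 cluster 2 (chr11:58948920-58956830) and Hist4 was the 1 gene Hist4h4 (chr6:136801553-136804415). GENCODE models of 60 members were unspliced, and the shortest model of a member was 312 bases long.

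The stem-loop that sets the 3′ end of these mRNAs was found in the transcript models of 44 members, 21 to 58 bases after the stop codon. In 15 members every model ended within 20 bases of the stop codon, so the site could not be read from them. The element was not found in Hist2h2be, Hist1h2br, Hist1h2bq, Hist1h2bc, Hist1h1a and Hist2h3b, whose models reached 37 to 2192 bases past the stop codon. Among 20559 other protein-coding genes with at least 30 bases after the stop codon, 3 (0.0146%) had the same element within 200 bases: Bap1, H2afx and H2bfm. The GENCODE M21 transcript sequences of 5 members of different types are shown to make the shared end visible, with the 16 bases of the stem and loop in capitals.
Hist1h4d: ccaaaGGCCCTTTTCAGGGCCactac
Hist1h4b: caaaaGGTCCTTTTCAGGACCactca
Hist1h3c: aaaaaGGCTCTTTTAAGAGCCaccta
Hist1h2bg: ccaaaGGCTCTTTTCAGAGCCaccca
Hist1h1e: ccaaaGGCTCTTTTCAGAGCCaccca
The 44 members carried 8 distinct versions of the 16 bases. The most frequent, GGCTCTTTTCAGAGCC, was in 3 H1, 10 H2A, 6 H2B and 5 H3 genes, and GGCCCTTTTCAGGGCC was in 7 genes, all for H4. None of the versions found in H4 genes was found in a gene of another type, as the lines for Hist1h4d and Hist1h4b show beside the others.

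Promoter windows from RefSeq (GRCm38.p6), 250 bases before to 50 after a gene's start, matched 60 members in 61 windows. Each was searched on both strands for CCAAT, for TATAAA and for the octamer ATTTGCAT. CCAAT is bound by the factor NF-Y, TATAAA is a TATA box and ATTTGCAT is bound by Oct-1, the product of Pou2f1. CCAAT was in 52 of 61 member windows (85.2%) and in 37.4% of all 32851 windows. It was in every window of H1, H2A, H2B and H3 members and in 3 of 12 of H4. TATAAA was in 57.4% of member windows and 13.6% of all windows. ATTTGCAT was in 13 member windows (21.3%) against 1.74% of all, 7 of 18 for H2A, 6 of 15 for H2B and 0 for H1, H3 and H4. Windows of neighbouring H2A and H2B genes that point away from each other overlap, so their matches are partly the same letters. The windows of Hist1h2bg (chr13:23571150-23571449, plus strand), Hist1h4d (chr13:23581318-23581617, plus strand) and Hist1h1b (chr13:21780576-21780875, minus strand) are shown because these genes recur in the results below, with the motifs on either strand in capitals.
Hist1h2bg: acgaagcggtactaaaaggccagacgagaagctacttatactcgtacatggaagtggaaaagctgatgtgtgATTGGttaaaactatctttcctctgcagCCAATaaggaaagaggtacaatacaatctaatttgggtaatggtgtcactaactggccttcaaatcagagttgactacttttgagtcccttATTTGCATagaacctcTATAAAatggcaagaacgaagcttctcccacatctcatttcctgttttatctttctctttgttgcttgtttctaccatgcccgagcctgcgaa
Hist1h4d: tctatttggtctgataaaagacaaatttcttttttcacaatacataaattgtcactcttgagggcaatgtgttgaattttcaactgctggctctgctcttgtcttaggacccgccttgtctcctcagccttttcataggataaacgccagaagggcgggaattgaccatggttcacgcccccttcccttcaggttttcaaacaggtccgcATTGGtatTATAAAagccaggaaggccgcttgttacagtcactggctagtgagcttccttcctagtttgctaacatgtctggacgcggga
Hist1h1b: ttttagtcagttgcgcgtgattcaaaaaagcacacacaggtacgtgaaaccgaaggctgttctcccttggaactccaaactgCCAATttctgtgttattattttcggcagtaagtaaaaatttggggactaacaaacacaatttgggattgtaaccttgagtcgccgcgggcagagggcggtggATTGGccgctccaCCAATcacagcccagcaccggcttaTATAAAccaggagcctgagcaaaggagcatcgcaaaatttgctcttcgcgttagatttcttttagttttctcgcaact

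The libraries did not form 1 continuous set. The first principal component of 14548 genes, computed without the members, Mki67 and a list of proliferation genes, held 48.2% of the variance and separated 79 libraries from 36. They are called the larger and the smaller part. The labels give no name to either, so the parts were never tested against each other, and correlations were computed within each. The summed level of 10 neuroendocrine marker genes ranged from 51.4 to 795 TPM (median 287) in the smaller part, and in the larger part from 1.35 to 48.6 TPM (median 8.22). The summed level of 9 luminal epithelial genes had a median of 80.5 TPM in the smaller part and 9809 TPM in the larger part.

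H4 genes had the highest levels, per transcript length, and the 6 H1 genes the lowest summed level of the 5 types. Such levels depend on the transcript models, which were 312 to 7425 bases long. Over the 65 members, transcript length and median TPM had a Spearman rho of -0.237. How far model length set the order of the types was not tested. Summed over the 65 members, the level ranged from 821 to 52248 TPM over all libraries with a median of 5572 TPM. In the larger part the lowest, median and highest sums were 821, 3580 and 11250 TPM. Those of the smaller part were 13814, 32971 and 52248 TPM, so the parts did not overlap. The library nearest the larger part was W4419 at 13814 TPM, and the next lowest of the smaller part was at 24123 TPM. In bulk tissue, fewer cells of a type and less RNA per cell cannot be told apart.

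**Figure D1:**
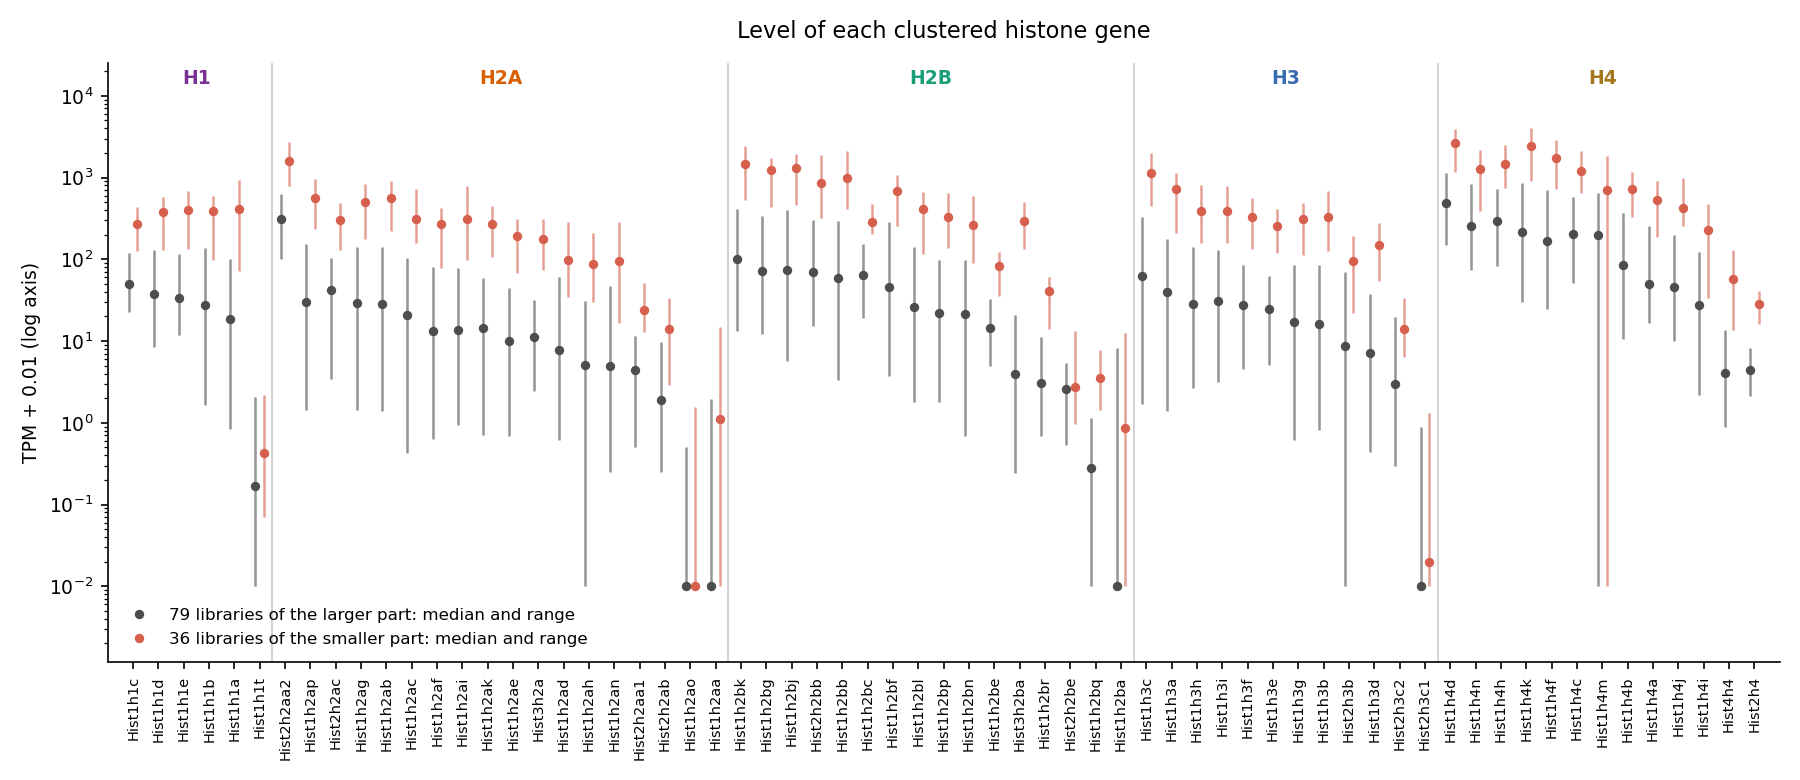
Level of each of the 65 histone genes, in TPM + 0.01 on a log axis, ordered by histone type and by median level. Points are medians and lines span the lowest to the highest library, grey for the 79 libraries of the larger part and red for the 36 of the smaller part. For 64 genes the red point lies above the grey one, and the few genes at the bottom are listed at 0 in many libraries.

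Of the 65 members, 59 reached 1 TPM in 50% of the libraries or more, and 60 had a mean of at least 1 TPM and entered the tests. The median was higher in the smaller part for 64 members and equal, at 0, for Hist1h2ao. The ranges of the parts did not overlap, with the smaller part higher, for 40 members, all among those 60. The same held for 2.09% of the 14623 genes that passed the filter, and the reverse for 0.00684%, which is 1 gene. The parts were set by other genes, so these counts describe the parts and test nothing.

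Among H4 genes, Hist1h4d had the highest level, at 150 to 3944 TPM over all libraries with a median of 611 TPM. Hist1h4n followed with a median of 393 TPM (73.3 to 2154) and Hist1h4h with 358 TPM (83.3 to 2520). All 13 H4 genes of the table encode 1 and the same protein, in 12 different coding sequences. The lowest H4 medians were those of Hist4h4 (5.99 TPM) and Hist2h4 (5.33 TPM), more than 1 order of magnitude under Hist1h4d.

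H2B genes came next, with Hist1h2bk at a median of 178 TPM (13.2 to 2455), Hist1h2bg at 124 TPM (12.2 to 1749) and Hist1h2bj at 122 TPM (5.76 to 1943). In H2A, Hist2h2aa2 stood at 382 TPM (101.5 to 2717), well above Hist1h2ap at 58.9 TPM (1.42 to 964) and Hist2h2ac at 56.5 TPM (3.42 to 491). Their ranges overlapped, so the order within a type was one of medians. In H3, Hist1h3c had a median of 134 TPM (1.68 to 2010), Hist1h3a 78.5 TPM (1.38 to 1136) and Hist1h3h 52.3 TPM (2.68 to 820).

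Of the H1 genes, Hist1h1c stood at a median of 69.6 TPM (22.9 to 438), Hist1h1d at 51.3 TPM (8.52 to 576) and Hist1h1e at 50.5 TPM (11.8 to 686). These encode the somatic linker histones. The testis histones had medians at or near 0 in the larger part and low medians in the smaller part. Hist1h1t had a median of 0.24 TPM (highest 2.15) and was listed at 0 in 3 libraries. Hist1h2aa was listed at 0 in 75 libraries (highest 14.8 TPM), 73 of the larger and 2 of the smaller part. Hist1h2ba was at 0 in 63 (highest 12.4 TPM), 60 of the larger and 3 of the smaller part. The medians of these genes in the smaller part were 1.11 and 0.865 TPM. The 3 testis histone genes, Hist1h2ao (median 0) and Hist2h3c1 (0 in 87) did not pass the filter.

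Members differed in how far the parts stood apart. Hist3h2ba, an H2B gene of the small Hist3 cluster, was at 0.23 to 20.8 TPM in the larger part (median 3.95) and at 133 to 502 TPM in the smaller part (median 295). Its neighbour Hist3h2a had a median of 11.3 TPM (2.43 to 31.4) in the larger part and 178 TPM (73.6 to 312) in the smaller part. Hist2h2be was at the other end, with 0.53 to 5.32 TPM (median 2.55) and 0.95 to 13.1 TPM (median 2.73). Hist2h2be is known as a variant H2B gene of olfactory neurons. Of these 3 genes, only Hist2h2be had ranges that overlapped between the parts. Hist4h4 was at 0.89 to 13.6 TPM (median 4.00) in the larger part and 13.6 to 130 TPM (median 57.9) in the smaller part, so its ranges met.

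The mix of histone types was not the same in the parts. H4 genes took a median of 55.6% of the summed TPM in the larger part (45.7 to 70.9%) and 41% in the smaller part (35.3 to 50%). H2B genes took 16.2% (9.43 to 24.2%) and 24.7% (21.4 to 28.3%), and H3 genes 7.64% (2.92 to 12.4%) and 12.6% (7.29 to 15.7%). H2A genes took 15% and 16.2%, and H1 genes 4.70% and 5.43%. All 5 shares overlapped between the parts. The Hist1 cluster took 87.6% and 89.5%, and the Hist2 cluster 11.9% and 8.79%.

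**Figure D2:**
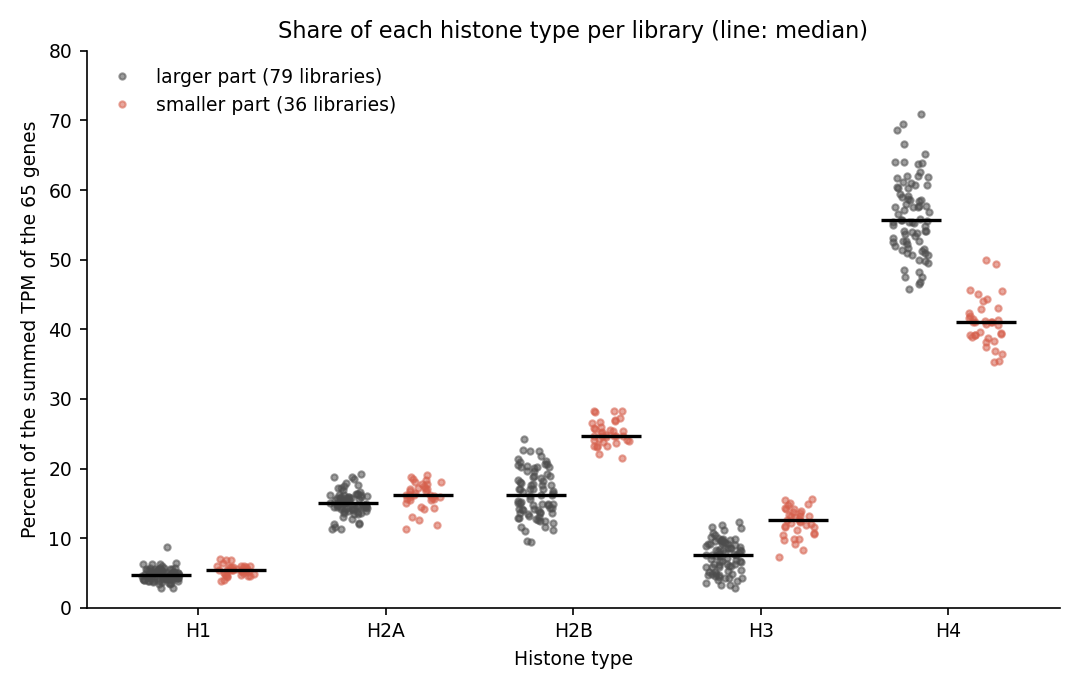
Percent of the summed TPM of the 65 genes taken by each histone type, 1 point per library, with a line at the median, grey for the larger part and red for the smaller part. The median H4 share is 55.6% in the larger and 41% in the smaller part, and the median H2B share 16.2% and 24.7%.

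Mki67 was at 0.39 to 25.7 TPM in the larger part (median 4.23) and at 20 to 144 TPM in the smaller part (median 83.5). The ratio of the summed histone level to Mki67 had a median of 891 in the larger part (378 to 5417) and of 395 in the smaller part (201 to 1354), and its ranges overlapped. Across the libraries of the larger part, the log2 sum and log2 Mki67 had a Pearson r of 0.900, which was place 85 among 14562 genes ordered by r with the sum. Over the smaller part r was 0.381, place 1944, and it was 0.22 without library W4419. These values are descriptions over 79 and 36 libraries. The 6 libraries with the consecutive labels W5000 to W5005 had the 6 lowest sums, up to 1181 TPM where the next was 1736 TPM, and Mki67 of 0.39 to 0.93 TPM, a range that held 2 other libraries. Without them r was 0.884 in the larger part. The labels do not say what these 6 shared.

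**Figure D3:**
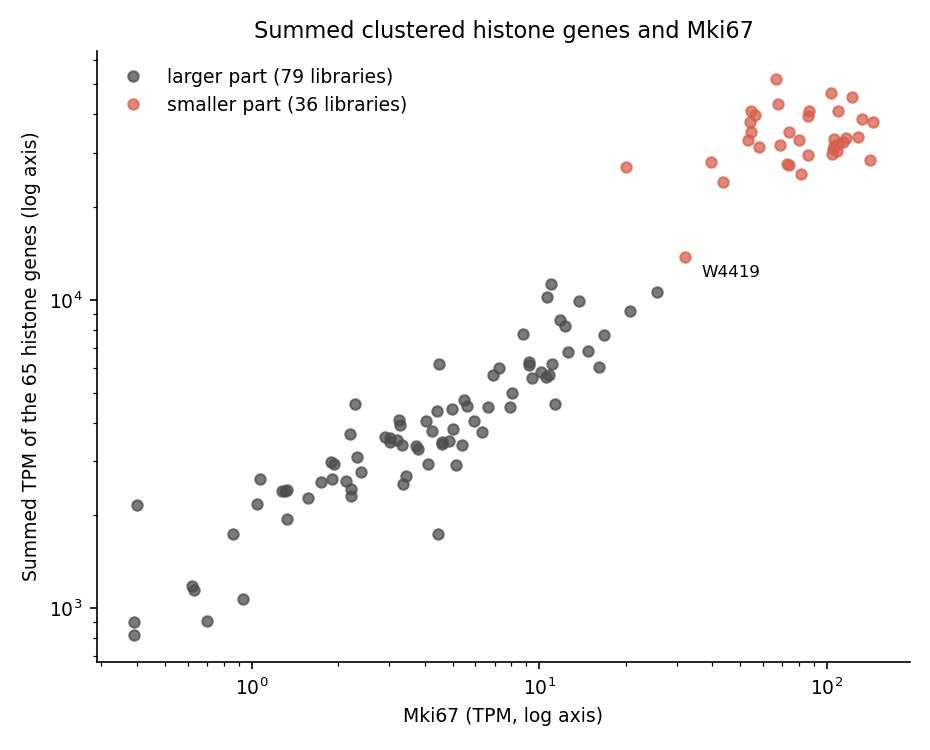
Summed TPM of the 65 histone genes (vertical, log axis) against Mki67 in TPM (horizontal, log axis), 1 point per library, grey for the larger part and red for the smaller part. The grey points climb together from 821 to 11250 TPM, the red points form a broad cloud above, and the library W4419 lies between them at 13814 TPM.

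In the larger part every tested histone gene rose with Mki67. Each gene's log2(TPM + 1) was correlated with that of Mki67 by a two-sided permutation test with 100000 resamples, and p-values were adjusted by Benjamini-Hochberg over all genes tested. Of 60 members, 60 passed with a positive r at an adjusted p under 0.05, and 0 with a negative r. Of all 14621 genes, 72.9% passed with a positive r and 1.41% with a negative one, so a positive call by itself was common in these libraries. The members' median r was 0.862, against 0.433 over all genes. The share of all TPM held by the 20 genes of the highest mean was 51.6 to 81.8% here and had r = -0.628 and rho = -0.625 with Mki67, as a description. With the levels rescaled without those 20 genes, 59 of 63 members and 28.7% of all genes passed with a positive r, with median r of 0.815 and 0.0763. With median-of-ratios scaling they were 57 of 60 members and 22.3% of all genes, with median r of 0.822 and -0.0185. Without W5000 to W5005, 59 of 60 members and 70.5% of all genes passed with a positive r, with median r of 0.823 and 0.392, and Hist1h4m did not pass (r = 0.107).

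The highest correlations were in H2B and H1 genes. Hist1h2bg was at 12.2, 71.4 and 341 TPM (lowest, median, highest) in the larger part. Its r with Mki67 was 0.944 (rho = 0.942, permutation p = 1e-05 with an adjusted p of 2.3e-05), and 0.940 once the 2 libraries with the most extreme Mki67 were left out. That p is the lowest value 100000 resamples allow. Its log2 level rose by 0.98 ± 0.039 (slope ± SE) per unit of log2 Mki67, and without W5000 to W5005 r was 0.931 and the slope 0.91. Hist1h2bl (r = 0.941), Hist1h1b (0.941), Hist1h1a (0.936) and Hist1h2bj (0.928) followed, with the same adjusted p. Their slopes of 1.13 to 1.28 were above that of Hist1h2bg. Hist1h1b was at 1.62, 27.3 and 138 TPM and Hist1h1a at 0.83, 18.5 and 99.6 TPM.

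By type, the median r was 0.915 for H1, 0.909 for H2B, 0.859 for H2A, 0.843 for H3 and 0.781 for H4. The slopes differed more, from a median of 0.569 for H4 to 1.00 for H2A, with 0.928 over all members. Hist1h4d, the most abundant member, had r = 0.781 (rho = 0.810) and a slope of 0.46 ± 0.042, and Hist2h2aa2 r = 0.807 (rho = 0.799) and 0.46 ± 0.038. Hist1h3c, the most abundant H3 gene, had a slope of 1.42 ± 0.085 at r = 0.884. Members of high level therefore included both shallow and steep slopes. The Hist2 cluster had a median r of 0.616 and a median slope of 0.326 over 9 genes tested, against 0.879 and 0.967 over 48 genes of the Hist1 cluster.

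The lowest correlations of the larger part came from 3 Hist2 genes and 2 H4 genes. Hist1h4m had r = 0.280 (rho = 0.418, permutation adjusted p = 0.0179), Hist2h2aa1 0.396 (adjusted p = 0.000653), Hist1h4i 0.443 (adjusted p = 0.000101), Hist2h3c2 0.496 (adjusted p = 4.31e-05) and Hist2h2be 0.505 (adjusted p = 2.3e-05). Hist1h4i was at 2.15, 27.7 and 124 TPM. Hist2h2aa1, Hist2h3c2 and Hist2h2be had medians of 4.40, 2.93 and 2.55 TPM, where the pseudocount of 1 flattens a change. Hist3h2ba (r = 0.909 at a median of 3.95 TPM), Hist3h2a (0.885 at 11.3 TPM) and Hist4h4 (0.530 at 4.00 TPM) passed as well. Low levels thus came with both low and high r, and their part in the low values was not tested.

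**Figure D4:**
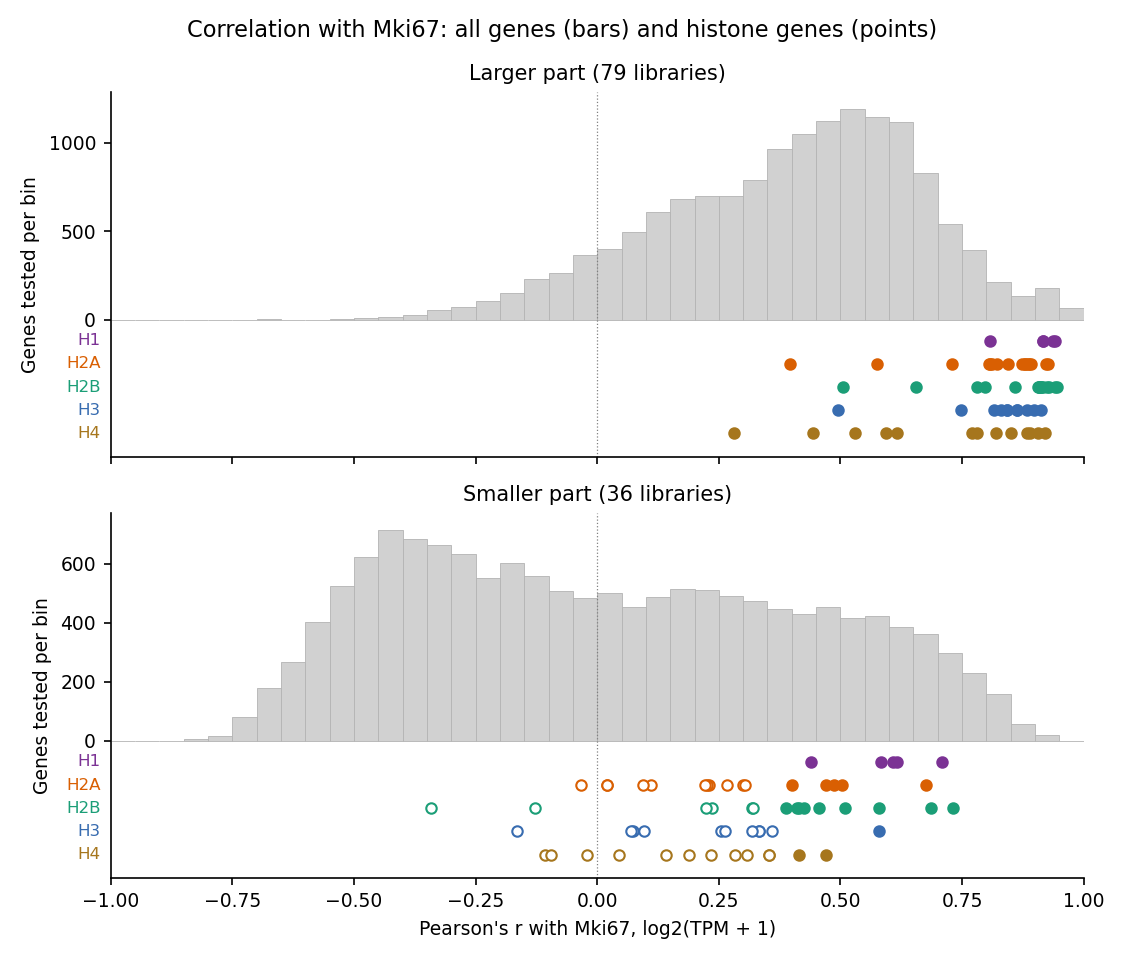
Pearson's r with Mki67 on log2(TPM + 1), as bars counting all genes tested per bin and as points for the 60 histone genes by type, above for the larger part and below for the smaller part. Filled points passed at an adjusted p under 0.05. All 60 are filled in the larger part, where the bars themselves centre on a positive r (median 0.433), and 22 are filled in the smaller part.

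Fewer histone genes followed Mki67 in the smaller part. Of 60 members, 22 passed with a positive r and 0 with a negative r, against 23.3% and 20.8% of 14611 genes, and the median r was 0.313 against -0.0214. The count rested on library W4419, without which 12 of 60 members and 22.4% of all genes passed with a positive r. With W370 left out as well, these being the 2 with the most extreme Mki67, 11 of 60 members and 20.1% of all genes passed. The count was 44 of 63 with the levels rescaled without those 20 genes, where 38.2% of all genes passed with a positive r. With Top2a as the reference it was 38 of 60, against 14.7% of all genes. Whether the larger and smaller part differed in correlation was not tested. In simulated data of the same size, 100 genes were made with r = 0.6, 100 with r = 0.8 and all others without a correlation. Of those made with r = 0.6, 31 were recovered at 36 libraries and 99 at 79 libraries. Far fewer genes passed there than in these data, which makes the adjustment stricter, so these counts do not give the power of the tests above.

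The 22 genes were unevenly spread over the types. All 5 tested H1 genes were among them, with 9 of 15 for H2B, 5 of 16 for H2A, 2 of 13 for H4 and 1 of 11 for H3. Hist1h2bg had the highest r, 0.731 (rho = 0.693, permutation adjusted p = 0.000133), and 0.681 without the 2 farthest libraries, at 430, 1244 and 1749 TPM. It was the member with the highest r in both parts. Hist1h1e had r = 0.708 (rho = 0.591, 0.568 without the 2 libraries, permutation adjusted p = 0.000133) at 133, 396 and 686 TPM. Hist1h2br (r = 0.686, permutation adjusted p = 0.00022), Hist1h2ak (0.676, 0.000374) and Hist1h1b (0.617, 0.00118) followed.

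Hist1h4d had r = 0.471 (permutation adjusted p = 0.0145) with rho = 0.297 and 0.225 without the 2 farthest libraries. Hist1h3a, the only H3 gene to pass, had r = 0.579 (rho = 0.478, permutation adjusted p = 0.00208). The lowest were Hist2h2be at r = -0.342 (permutation adjusted p = 0.0811), Hist1h3h at -0.164 (0.441), Hist1h2bc at -0.127 (0.555), Hist1h4m at -0.108 (0.623) and Hist1h4j at -0.0946 (0.668), none past the threshold. Hist3h2ba (r = 0.224, adjusted p = 0.276), Hist3h2a (0.267, 0.185) and Hist4h4 (0.234, 0.254) did not pass by the same permutation test.

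Near-identical copies make some single values uncertain. Of the members, 29 had a transcript at least 95% identical over 80% of its length to that of another gene of the table, mostly another member. Reads that fit both had to be divided between them by RSEM. The 80% is of the member's own transcript, so a member with a longer model can match a shorter one and not be counted. Hist1h2bg, not among the 29, was such a match for Hist1h2bk and Hist1h2bf, so its reads may have been divided too. Hist1h4m was listed at 0 in 17 libraries, 15 of the larger and 2 of the smaller part, in which Hist1h4n, with the same coding sequence, was at 90.9 to 2021 TPM (median 528). The sum of both genes had r = 0.795 with Mki67 in the larger part, above the 0.280 of Hist1h4m and the 0.594 of Hist1h4n alone. Its r was 0.0442 in the smaller part. Hist2h2aa2 and Hist2h2aa1 have identical coding sequences and medians of 382 and 6.2 TPM, so their levels apart cannot be relied on, and their sum had a median of 392 TPM. Such pairs were chosen after their values were seen, as were the H3 pair Hist2h3b and Hist2h3c2, whose sum had r = 0.870 in the larger part against 0.496 for Hist2h3c2, and the H2B pair Hist1h2bq and Hist1h2br (0.920).

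Histone genes were also correlated with one another, which is given as a description. Over the 1770 pairs of the 60 members, the median pairwise r was 0.853 in the larger part and 0.508 in the smaller part. Of the H2A and H2B genes that entered the tests, 10 pairs lie head to head with 175 to 301 bases between their starts and so share a promoter region. Pairs with a gene that did not pass the filter, such as Hist1h2ba and Hist1h2aa, were left out. Their median r was 0.874 in the larger part, where all 240 pairs of an H2A and an H2B gene had a median of 0.873. These medians were 0.539 and 0.448 in the smaller part. The pair of Hist1h2bg and Hist1h2ae, with the shortest distance, had r of 0.942 and 0.738. The pair of Hist2h2be and Hist2h2ac had 0.585 and 0.0371, the lowest of the 10 in both parts. Both pairs were singled out after their values were seen, and the kit's labels state no strand.

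The 10 genes other than members whose level was most like the summed histone level in the larger part are named by r alone. H2afx, whose histone H2AX marks DNA breaks, had the highest r (0.959 over 79 libraries), and it carries the stem-loop shown above for the members. Cdk1 (0.949), the mitotic kinase, Prc1 (0.949), which bundles spindle microtubules, and Ccna2 (0.943), the S and G2 phase cyclin A2, followed with Lockd (0.939), a long noncoding RNA, and the unnamed gene ENSMUSG00000064168 (0.948). Stmn1 (0.937), a tubulin-binding protein, Rrm1 (0.936), a subunit of ribonucleotide reductase, Uhrf1 (0.936), which recruits the maintenance DNA methyltransferase, and Cdc20 (0.935), an activator of the anaphase-promoting complex, completed the 10. The median over 14562 genes was 0.381. The r of these genes in the smaller part with the sum ranged from 0.431 for ENSMUSG00000064168 to 0.903 for Ccna2, which was first there, while Mki67 was at 0.381.

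Genes that make, process and load histones were read beside the members from lists. Of all genes tested, 72.9% passed with a positive r in the larger part. In the smaller part 23.3% passed with a positive r and 20.8% with a negative one, and the lists are set beside these shares. Of 17 tested genes for histone transcription and histone mRNA processing, 17 passed with a positive r with Mki67 in the larger part. Slbp had r = 0.923 at 5.17, 16.8 and 59.9 TPM, and Eri1, an exonuclease that trims histone mRNA ends, 0.890. The lowest were Snrpf (0.435), a core protein of small nuclear ribonucleoproteins, and Pou2f1 (0.469), whose r was -0.0939 with median-of-ratios scaling. Of the same genes, 4 passed in the smaller part with a positive r, led by Pou2f1 (0.825) and Npat (0.796), and 1 with a negative r, Lsm10 (-0.554), a protein of the U7 particle that cuts histone mRNA ends.

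Of 12 histone chaperones and assembly factors, 11 passed with a positive r in the larger part and 5 in the smaller part. Asf1b, a chaperone of H3 and H4 (r = 0.952), and Chaf1b, a subunit of the replication-coupled assembly factor (0.948), were highest in the larger part. The importin Ipo4 had r = 0.115, which did not pass and turned negative with both other scalings, while in the smaller part it passed with a positive r of 0.413 (permutation adjusted p = 0.0319), which rested on the 2 farthest libraries (0.0851 without them). Nap1l4, second lowest at 0.526, was at -0.0281 with median-of-ratios scaling. Nasp, which binds H1 and H3 with H4, was highest in the smaller part at 0.870, and Asf1a had 0.566.

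All 16 S phase genes passed in the larger part, with Rrm1 (r = 0.955) and Mcm3 (0.950) highest and Fen1 (0.883) and Tyms (0.779) lowest, and 3 in the smaller part, Mcm7 (0.695) and Rrm1 (0.416) among them. All 6 genes of G1/S control passed in the larger part, with Cdk2 (0.929) and Ccne2 (0.925) highest and E2f2 (0.723) and E2f3 (0.482) lowest, and 3 in the smaller part, including E2f2 (0.654) and E2f1 (0.608). All 14 proliferation genes passed in the larger part, with the mitotic genes Tpx2 (0.972) and Aurkb (0.968) highest and Foxm1 (0.948) and Bub1 (0.937) lowest, and 8 in the smaller part, led by Foxm1 (0.810) and Bub1 (0.758). The members' counts of 60 and 22 of 60 stand beside these, as do the 72.9% and 23.3% of all genes. In the smaller part the S phase list (18.8%) was under that share and the histone mRNA processing list (23.5%) was level with it.

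Replication-independent histone genes are mostly not tied to S phase and lie outside the clusters. In the larger part 9 of 11 passed with a positive r (81.8%), against 72.9% of all genes. Cenpa, the centromere H3 variant (r = 0.959), and H2afx (0.928) were highest. H2afx is on this list although it carries the stem-loop of the members. H2afy2 (0.210) and H2afj (0.0934) did not pass and turned negative with both other scalings. In the smaller part only Cenpa (0.622) passed with a positive r, which is 9.09% against 23.3% of all genes. H2afj (-0.568) passed there with a negative one. H2afj was at 7.04, 15.3 and 35.8 TPM in the larger part and at 2.14, 4.88 and 21.7 TPM in the smaller part, lower by its median where 64 of 65 members were higher.

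**Figure D5:**
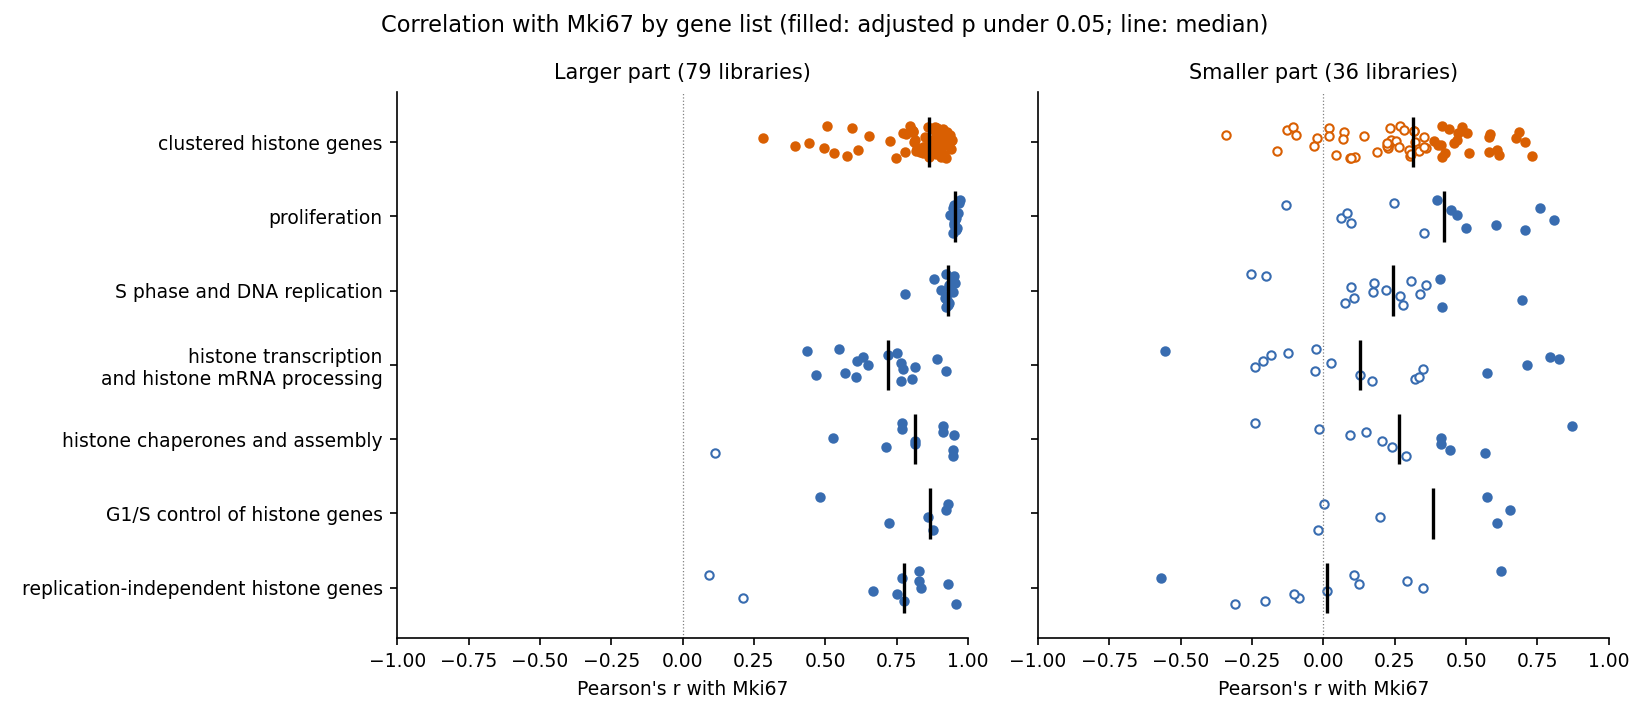
Pearson's r with Mki67 for the 60 histone genes (orange) and for 6 gene lists (blue), 1 point per gene, with a line at the median, left for the larger part and right for the smaller part. Filled points passed at an adjusted p under 0.05. In the larger part the histone genes (median 0.862) lie between the proliferation genes (0.954) and the histone mRNA processing genes (0.720).

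Summed levels of cell type markers were set beside Mki67 as well, as a description. In the larger part the summed level of 10 immune genes had r = 0.540 with Mki67, that of 10 stroma genes 0.361, of 9 luminal genes -0.361, of 10 neuroendocrine genes 0.233 and of 7 seminal vesicle genes -0.0902. In the smaller part these were -0.516, -0.465, -0.733, 0.0948 and -0.395. The immune sum ranged from 11.8 to 991 TPM in the larger part and from 14.3 to 502 TPM in the smaller part, and the stroma sum from 338 to 6851 and from 14.2 to 2154 TPM. Of the immune genes Cd3e and Cd79a had medians under 1 TPM in both parts, and 8 of the 10 neuroendocrine genes, Chga and Syp among them, had medians under 1 TPM in the larger part. Seminal vesicle genes summed to 1.92 to 172500 TPM in the larger part and 1.49 to 242.3 TPM in the smaller part. Their part in the correlations of the histone genes was not tested.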

How the data were processed

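Ribosomal-RNA-depleted total RNA of 115 prostate tumor samples was sequenced. Per the labels, the reads were processed with CASAVA 1.8.2, Bowtie2 2.2.5 and RSEM 1.2.20 on GRCm38. The authors trimmed the reads and used Seqnature to build the allele-specific transcriptome to which they were mapped. The annotation release is not given in the sources used here. The authors deposited TPM for 45699 genes, which keeps no depth, so no count model or interval was used and depth is unknown. The study's text states fewer libraries than the table holds, and all were used. GENCODE M21 gave names and positions for 98.8% of the genes.

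From the TPM, log2(TPM + 1) was correlated with Mki67 for genes whose mean over all libraries reached 1 TPM, separately in 2 parts of the libraries found by a mixture of 2 normal distributions on the first principal component. Pearson's r was tested with 100000 permutations, two-sided, with Benjamini-Hochberg adjustment over all genes tested. Near-identical copies were found with BLAST+ 2.17.0. Scripts ran in Python 3.11.15 with scikit-learn 1.9.0, scipy 1.17.1, pandas 2.3.3, numpy 2.4.6 and, for plots, matplotlib 3.10.9. The test was checked on simulated data of 14623 genes. A p-value is the share of permutations of Mki67 over these libraries that gave an r of at least the observed size. It treats the libraries of a part as independent, the run W5000 to W5005 included. Alternatives changed the pseudocount, the scaling, the filter, the correlation measure, the reference and the libraries.

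Named members were, per histone type, the 3 highest and the lowest by median TPM, per part the 5 highest and 5 lowest r, all Hist3 and Hist4 genes, the testis histones and those that an alternative turned. Of each list the 2 highest and 2 lowest r in the larger part are named, and in the smaller part those of its own 2 highest and 2 lowest that passed. Ipo4 in the smaller part was added after its value was seen. Members and lists were chosen with earlier results of these data known.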

Additional observations from a re-analysis of the deposited data

How the results depend on the processing

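In the larger part 57 to 60 members passed with a positive r under every alternative, and those lost were Hist2h2aa1 (r = 0.215 rescaled without the 20 genes of the largest share, 0.209 with median-of-ratios scaling), Hist2h2be (0.177) and Hist2h4 (0.194, both with the latter) and Hist1h4m (0.107 without W5000 to W5005, a setting added after the data were seen). Rescaled, and with no filter, 2 members that the filter had left out passed with a negative r. In the smaller part the count of 22 became 44 of 63 rescaled, where 38.2% of all genes passed with a positive r. It became 12 of 60 with Spearman's rho (22.4% of all genes) and 11 of 60 without the 2 farthest libraries (20.1%). With Top2a as reference it was 38 of 60 (14.7%), and with the proliferation list 45 of 60 (19.4%). It became 12 of 60 without W4419 (22.4%) and 19 of 60 without W370 (21.2%), both settings added after the data were seen. Hist2h2be then passed with a negative r rescaled (-0.369) and with median-of-ratios scaling (-0.465), and Hist1h3h without the 2 farthest libraries (-0.481). Library W78022, whose name is close to that of W7822, lies in the larger part, so leaving it out gave no other value in the smaller part. The cause was not tested. The median summed level of 5572 TPM became 5468 to 14850 TPM under the alternatives, highest when rescaled. These moves were under 1 SD over all libraries (14530 TPM), a loose limit because that SD spans both parts and exceeds the median. As detected counted 55 to 61 members. No paired analysis was possible because all mice belong to 1 group.

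Values of r with Mki67 that changed sign in the larger part, none of a member, were as follows. Rescaled without the 20 genes of the largest share, r was -0.331 for Ipo4, -0.252 for H2afy2 and -0.276 for H2afj. With median-of-ratios scaling, r was -0.433 for Ipo4, -0.385 for H2afy2, -0.0939 for Pou2f1, -0.0281 for Nap1l4 and -0.287 for H2afj. Without W5000 to W5005, r was -0.0892 for H2afj. In the smaller part 19 members and 2 list genes changed sign, the members from an r of at most 0.353 in size, and 4 of these members passed with a positive r under an alternative. Rescaled without the 20 genes of the largest share, r was 0.0671 for Hist1h2bc, 0.14 for Hist2h2aa1, 0.123 for Hist1h4j and 0.168 for Hist1h4b. With median-of-ratios scaling, r was -0.0116 for Hist1h2ac, -0.00247 for Hist1h2ad and -0.00364 for Hist2h3b. As Spearman's rho, r was 0.0318 for Hist2h2aa1, -0.0821 for Hist1h2ac, -0.108 for Hist1h4f, -0.0458 for Hist1h2ah, -0.0867 for Hist1h2ad, -0.0262 for Hist2h3b, -0.0255 for Hist2h3c2 and -0.0741 for Hist1h3i. With Top2a as reference, r was 0.451 for Hist1h2bc, 0.171 for Lsm10, 0.367 for Hist2h2aa1, 0.274 for Hist1h4j, 0.0767 for Hist2h2be, 0.542 for Hist1h4b and 0.232 for Hist1h3h. With the proliferation list as reference, r was 0.654 for Hist1h2bc, 0.25 for Lsm10, 0.0701 for H2afj, 0.517 for Hist2h2aa1, 0.512 for Hist1h4j, 0.698 for Hist1h4b and 0.404 for Hist1h3h. Without the 2 farthest libraries, r was -0.111 for Hist1h4i, -0.0785 for Hist1h4c, -0.0167 for Hist1h4h, -0.0514 for Hist2h2ab, 0.0228 for Hist2h2aa1, -0.0559 for Hist1h3b, -0.221 for Hist1h2ac, -0.198 for Hist1h4f, -0.22 for Hist1h2ah, -0.0238 for Hist1h2an, -0.253 for Hist1h2ad, -0.157 for Hist2h3b, -0.187 for Hist2h3c2 and -0.214 for Hist1h3i. Without W4419, r was -0.0957 for Hist1h2ac, -0.203 for Hist1h4f, -0.041 for Hist1h2ah, -0.0849 for Hist1h2ad, -0.0236 for Hist2h3b, -0.0138 for Hist2h3c2 and -0.0605 for Hist1h3i. Without W370, r was 0.169 for Hist2h2aa1, -0.057 for Hist1h2ac, -0.0946 for Hist1h2ad, -0.0153 for Hist2h3b and -0.0576 for Hist2h3c2.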
